A study of Mus musculus with 29 samples.

Results

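The genes examined were 10 components of the integrated stress response in mouse liver, with the liver hormone gene Fgf21 among them. They were Atf4, Atf5, Ddit3, Trib3, Fgf21, Chac1, Asns, Phgdh, Psat1 and Mthfd2, taken by symbol from a table of 55421 genes, in which they have 11 entries. They were selected on their CPM in these mice over the 6 groups, with the age and HDM201 comparisons already known. Values of the 10 genes are therefore given as a description with standard errors. Counts of them past a threshold are printed once, beside the share over all genes, and nothing is read from those counts.

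Whole liver of mice was profiled by bulk RNA-seq of polyA RNA in 6 groups. Old mice were C57BL/6J, labelled as 20 months of age in females and 24 months in males. They received either vehicle, which was methylcellulose in phosphate buffer, or 10 mg/kg HDM201 by oral gavage each day for 14 days, and young mice were C57BL6/N of 5 months given vehicle. HDM201 is an inhibitor of MDM2, the ubiquitin ligase that marks p53 for degradation, and the study asked what p53 activation does in aged tissue. Age and substrain cannot be told apart in this design. Old females and old males differ in labelled age, so sex cannot be told apart from that age difference in comparisons between the sexes. Livers were collected in the morning from mice with free access to food. Read counts were available for 5 young, 4 old vehicle and 5 old HDM201 females and for 4 young, 4 old vehicle and 5 old HDM201 males. A further old vehicle male (replicate 1) and a further young male (replicate 5) have FPKM values only. The study's methods state that a young male was excluded because of an open wound and a suspected infection. The labels do not say which mouse that was. Total counts on genes ran from 16485900 to 23570458 per mouse, with a median of 19149235.

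In the integrated stress response, kinases that sense amino acid shortage, viral RNA, heme shortage or misfolded protein phosphorylate the translation factor eIF2, which lowers translation in general and raises that of the transcription factor ATF4. ATF4 then switches on genes for amino acid synthesis and transport, tRNA charging and stress control, often together with C/EBP partners at composite DNA elements. FGF21 is a hormone secreted mainly by liver, known for its rise in fasting, protein restriction and mitochondrial stress, and both ATF4 and the fasting factor PPARα are known to drive its gene. Because ATF4 is controlled at translation, its mRNA level is not a measure of its activity.

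The promoters of 4 of the 10 genes hold the letters TGATGNAA, the core of the composite C/EBP-ATF element, read on both strands within 250 bases before to 50 bases after the start site (RefSeq, GRCm38.p6). All 10 genes matched the RefSeq table. Fgf21 holds 1 match starting 139 bases before its start site, Chac1 193 bases before, Asns 23 bases before and Trib3 14 bases after. The same letters occur in promoters of 4.51% of 27025 genes, and in 3.97% of 32851 promoters. The cyclic AMP response element TGACGTCA, which is its own reverse complement, was found in none of the 10 genes' windows. It occurs in promoters of 2.03% of all genes, and in 1.79% of all promoters. The sequences of the 4 windows are shown because these are the promoters with a match. They read 5′ to 3′ on each gene's own strand, with the match in capitals.
Fgf21, chr7:45615441-45615740, minus strand: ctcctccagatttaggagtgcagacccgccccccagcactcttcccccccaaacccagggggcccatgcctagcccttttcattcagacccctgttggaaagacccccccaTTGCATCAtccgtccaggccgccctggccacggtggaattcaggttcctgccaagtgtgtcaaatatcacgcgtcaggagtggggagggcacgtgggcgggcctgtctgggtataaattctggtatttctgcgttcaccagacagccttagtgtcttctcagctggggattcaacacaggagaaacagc
Chac1, chr2:119350992-119351291, plus strand: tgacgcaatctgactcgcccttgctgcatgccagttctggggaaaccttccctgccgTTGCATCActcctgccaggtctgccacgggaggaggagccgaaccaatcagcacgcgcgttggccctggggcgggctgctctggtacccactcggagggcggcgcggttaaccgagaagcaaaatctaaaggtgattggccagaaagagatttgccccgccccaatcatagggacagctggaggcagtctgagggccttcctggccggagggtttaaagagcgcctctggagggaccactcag
Asns, chr6:7693160-7693459, minus strand: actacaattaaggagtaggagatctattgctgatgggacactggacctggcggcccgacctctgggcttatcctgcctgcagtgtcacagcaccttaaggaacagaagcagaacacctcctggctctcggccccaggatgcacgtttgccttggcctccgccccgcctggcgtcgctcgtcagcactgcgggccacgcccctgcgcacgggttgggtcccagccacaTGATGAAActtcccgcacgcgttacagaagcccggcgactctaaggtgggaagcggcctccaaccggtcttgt
Trib3, chr2:152344011-152344310, minus strand: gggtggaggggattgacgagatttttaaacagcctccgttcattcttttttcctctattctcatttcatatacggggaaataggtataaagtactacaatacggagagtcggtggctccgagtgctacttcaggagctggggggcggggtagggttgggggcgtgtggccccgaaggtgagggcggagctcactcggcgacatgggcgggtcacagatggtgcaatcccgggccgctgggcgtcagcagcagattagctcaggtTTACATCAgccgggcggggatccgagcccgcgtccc

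The match is TTGCATCA in both Fgf21 and Chac1, TTACATCA in Trib3 and TGATGAAA in Asns. A match of letters describes the sequence and was not tested as a binding site. The 4 genes with a match did not share a pattern over the groups. Fgf21 was highest in old HDM201 females, Trib3 in young females and Asns in young males, while the mean of Chac1 stayed within 2.32 to 4.21 CPM in every group.

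Levels below are CPM, that is counts relative to the library total, scaled between libraries with TMM factors, and folds are log2 values fitted with edgeR. On a scale per length, over the 27 mice with counts, Atf5 was the most abundant of the 10 with a median of 280.5 FPKM, followed by Atf4 at 54.5 FPKM and Ddit3 at 8.87 FPKM. Chac1 at 2.07, Trib3 at 2.00 and Fgf21 at 1.73 FPKM followed, and their ranges over mice overlapped. Mthfd2 at 0.612, Asns at 0.519, Psat1 at 0.303 and Phgdh at 0.243 FPKM were the lowest of the 10. Asns ran from 0.0240 to 24.0 FPKM.

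The samples expressed the hepatocyte markers that define the labelled tissue. Summed over 7 markers they reached 78528 to 161344 CPM per mouse, and none of the 7 was at 0. Exocrine pancreas, a tissue that lies beside the liver and is rich in stress response transcripts, summed to at most 1.98 CPM in any mouse, with 6 to 9 of its 10 markers at 0 in each group. Mdm2, which p53 induces, was higher in HDM201 females than in old vehicle females, with a log2 difference of 0.33 (SE 0.077, FDR of 0.0350 by edgeR), and had a log2 difference of 0.00090 in males (FDR of 0.998). Cdkn1a, the p53 target that encodes the cell cycle inhibitor p21, did not pass in either sex. Its log2 difference was 0.12 in females (SE 0.57, FDR of 0.925 by edgeR), with means of 19.0 and 17.0 CPM, and 2.26 in males (SE 0.74, FDR of 0.298 by edgeR), with means of 29.5 and 6.12 CPM. The female minus male difference of the HDM201 effects did not pass for Mdm2 (0.33, FDR of 0.103 by edgeR) or for Cdkn1a (-2.13, FDR of 0.266 by edgeR). These values are of RNA. The study reported that p53 and p21 protein were higher by western blot in livers of HDM201 mice than with vehicle.

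**Figure D1:**
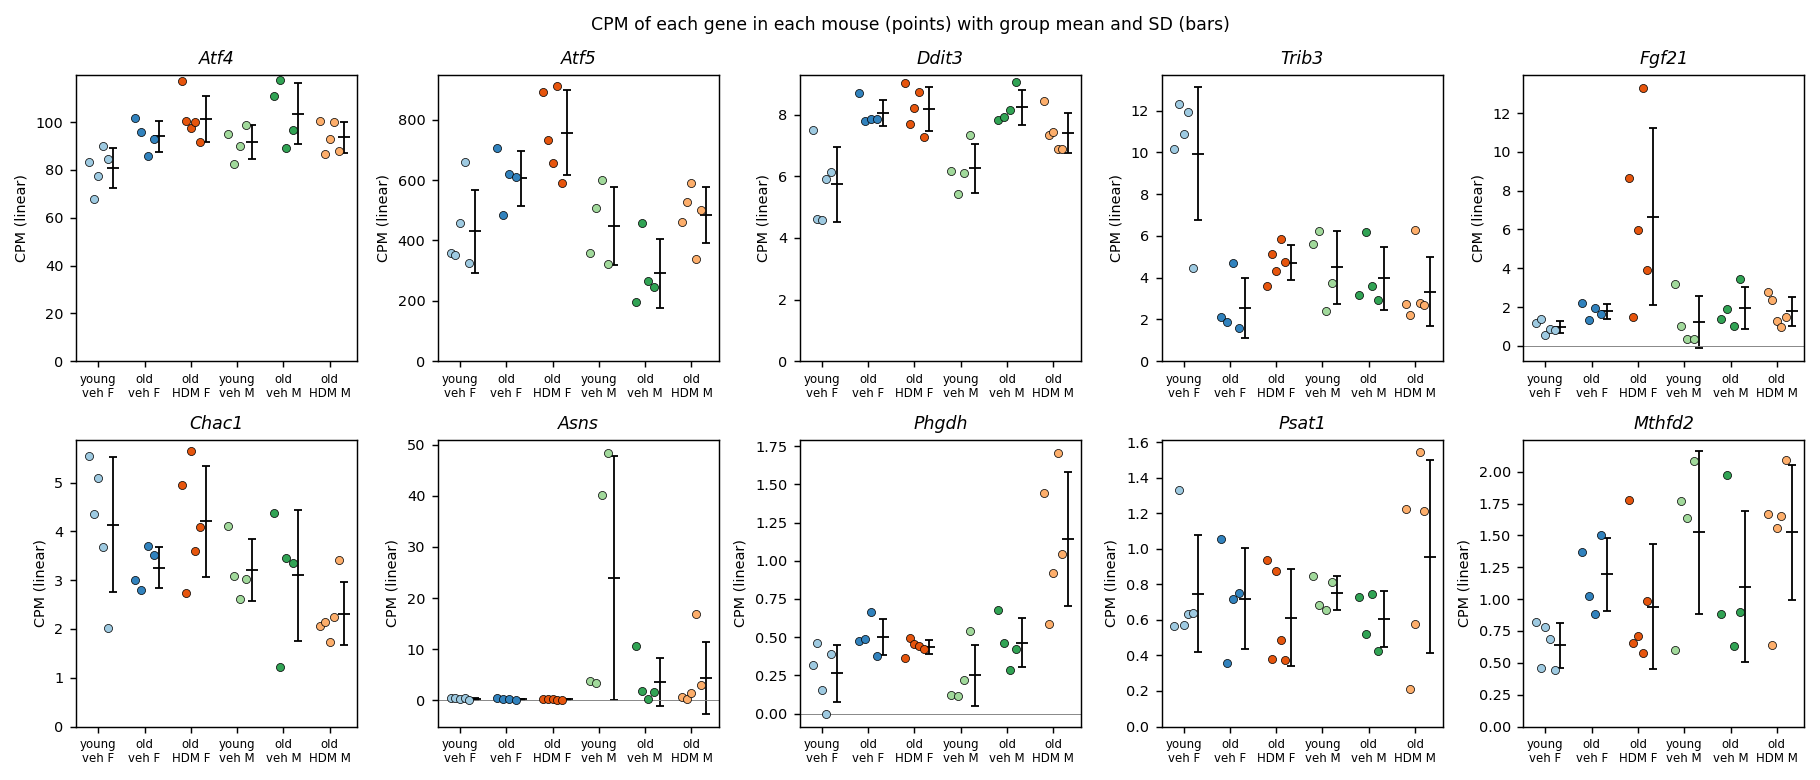
CPM (linear axes) of each of the 10 genes in the 27 mice with counts, by group (young vehicle, old vehicle and old HDM201, F for females and M for males), with points for mice and bars for the group mean and SD. Fgf21 spreads from 1.48 to 13.3 CPM in old HDM201 females, Trib3 is highest in young females with a mean of 9.95 CPM, and Asns exceeds 40 CPM in 2 young males.

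Fgf21, on chromosome 7 from 45613886 to 45615490 (GRCm38, minus strand, 3 exons), had the largest HDM201 fold change in females of the 9 genes that could be fitted. The HDM201 females had 8.66, 1.48, 5.95, 13.3 and 3.90 CPM and the old vehicle females 2.21, 1.34, 1.94 and 1.64 CPM. Of the 5 HDM201 females 4 lay above every old vehicle female and 1 lay within their range, so the groups overlap. The means were 6.66 ± 4.56 (SD, n = 5) and 1.78 ± 0.378 (SD, n = 4) CPM, a log2 fold change of 1.90 (SE 0.50). In a bulk sample a change in the number of cells that express a gene and a change in RNA per cell cannot be told apart.

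In males the ranges of treated and untreated old mice overlapped for Fgf21. HDM201 males had 2.78, 2.35, 1.27, 0.960 and 1.49 CPM and old vehicle males 1.41, 1.91, 1.03 and 3.45 CPM, with a log2 fold change of -0.13 (SE 0.40) that ran from -0.36 to 0.29 when single mice were left out. The female minus male difference of the HDM201 log2 fold changes was 2.04 (SE 0.69). Young females had 1.20, 1.38, 0.572, 0.862 and 0.834 CPM, so the old vehicle females were higher by 0.89 (SE 0.27) on the log2 scale, with 1 young mouse above the lowest old mouse. Young males had 3.20, 1.03, 0.327 and 0.362 CPM, and a single mouse carried most of the group's mean. The log2 fold change with age in males was 0.71 (SE 0.67), and leaving out single mice moved it to between 0.29 (without old vehicle male 5) and 1.79 (without young male 1). The order of the group means was old HDM201 females, old vehicle males (1.95 ± 1.06 CPM), old vehicle females, old HDM201 males (1.77 ± 0.767 CPM), young males (1.23 ± 1.35 CPM) and young females (0.970 ± 0.321 CPM, SD). Each group in that order overlapped its neighbours in single mice.

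The cholangiocyte marker sum moved with the Fgf21 difference in females. It was 86.1 to 153 CPM in old HDM201 females against 50.8 to 72.6 CPM in old vehicle females, with all 6 markers detected. The macrophage and Kupffer cell sum went the other way, at 200.5 to 320 CPM against 328 to 649 CPM over 9 markers. Their part in the Fgf21 values was not tested. Across the 27 mice, Fgf21 had r = 0.53 with the cholangiocyte sum and -0.01 after subtracting group means, and r = 0.03 and -0.28 with the macrophage sum.

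The genes whose levels followed Fgf21 most closely over all 27 mice, by Pearson r of log2(CPM + 1) among 15220 genes, were Plin2 (0.80), Fut1 (0.80), Hes1 (0.76), 1700056E22Rik (0.75) and Corin (0.75). Plin2 encodes a coat protein of lipid droplets. With each group's mean subtracted they were Inhbe (0.77), Creb3l3 (0.76), Pex11a (0.75), Gm47528 (0.74) and Prrc1 (0.73). Creb3l3 encodes a liver transcription factor of fasting and lipid metabolism, and Inhbe encodes the beta E subunit of activins. The points share 6 groups and the same libraries. Among the other 9 genes of the set, the highest r with Fgf21 was that of Ddit3, at 0.55 over all mice and 0.29 with group means subtracted.

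Atf4, on chromosome 15 from 80255184 to 80257541, and Atf5, on chromosome 7 from 44812256 to 44816658, encode related transcription factors whose translation rises in the stress response. Group means of Atf4 ran from 80.7 CPM in young females to 104 CPM in old vehicle males. Single mice ran from 68.0 to 117 CPM. Its log2 fold changes were 0.24 (SE 0.090) with age in females, 0.19 (SE 0.11) with age in males, 0.089 (SE 0.080) with HDM201 in females and -0.14 (SE 0.10) with HDM201 in males.

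Atf5 was higher in old than in young females and lower in old than in young males. Young females had 359, 351, 458, 659 and 326 CPM and old vehicle females 706, 485, 621 and 611 CPM, overlapping through 1 young mouse, with a log2 fold change of 0.52 (SE 0.19). Young males had 357, 508, 601 and 323 CPM and old vehicle males 195, 458, 267 and 246 CPM, with a log2 fold change of -0.61 (SE 0.27). The female minus male difference of these age effects was 1.14 (SE 0.36). HDM201 males, at 460.0, 526, 591, 339.9 and 501 CPM, lay above 3 of the 4 old vehicle males, and the log2 fold change was 0.74 (SE 0.23). In females the HDM201 values were 891, 733, 658, 913 and 592 CPM, with a log2 fold change of 0.30 (SE 0.14) and overlapping groups.

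Ddit3, on chromosome 10 from 127290774 to 127296288, encodes CHOP, the transcription factor that links prolonged stress to cell death. A second Ddit3 entry of the table lies within the same interval and had 0 counts in all 27 mice. The values are those of the first entry. Young females had 7.50, 4.61, 4.58, 5.92 and 6.13 CPM and old vehicle females 8.69, 7.79, 7.85 and 7.87 CPM. Young males had 6.16, 5.43, 6.11 and 7.33 CPM and old vehicle males 7.82, 7.94, 8.15 and 9.08 CPM. In both sexes every old vehicle mouse lay above every young mouse, by 0.51 (SE 0.15) in females and 0.41 (SE 0.14) in males on the log2 scale. Old HDM201 mice had 7.28 to 9.03 CPM in females and 6.88 to 8.46 CPM in males, and log2 fold changes of 0.0062 (SE 0.10) and -0.15 (SE 0.11). The B and plasma cell marker sum separated the same groups, at 21.8 to 40.9 CPM in old vehicle against 5.20 to 6.92 CPM in young females and 18.0 to 32.6 against 4.69 to 6.46 CPM in males, over 8 detected markers. The T and NK cell sum did so as well, at 6.00 to 6.41 against 2.81 to 4.27 CPM in females and 2.72 to 9.24 against 1.15 to 2.31 CPM in males, as did the cholangiocyte sum, at 50.8 to 72.6 against 43.2 to 50.5 CPM and 56.0 to 75.2 against 26.7 to 43.2 CPM. The part of these cells in the Ddit3 values was not tested.

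Trib3, on chromosome 2 from 152337422 to 152344032, encodes a pseudokinase that ATF4 and CHOP induce and that dampens ATF4 and insulin signalling. It was lower in old females than in young females, opposite in direction to Fgf21 and Ddit3. Young females had 10.1, 12.3, 10.9, 12.0 and 4.46 CPM and old vehicle females 2.11, 1.87, 4.70 and 1.59 CPM. The groups overlap through 1 low young mouse and 1 high old mouse, and the log2 fold change was -1.95 (SE 0.34). In males the groups overlapped, with 5.62, 6.23, 2.40 and 3.76 CPM in young and 3.18, 6.20, 3.62 and 2.92 CPM in old vehicle mice and a log2 fold change of -0.16 (SE 0.33). Its sign turned in 4 of 16 alternative settings, to as far as 0.44. The female minus male difference was -1.77 (SE 0.52).

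Old HDM201 females had 3.60, 5.14, 4.32, 5.83 and 4.75 CPM of Trib3, between the old vehicle and young females in mean. Their log2 fold change against old vehicle females was 0.88 (SE 0.29), and it was 1.33 without old vehicle female 3, the high mouse of that group. HDM201 males had 2.73, 2.19, 6.29, 2.77 and 2.70 CPM and a log2 fold change of -0.25 (SE 0.33), which was 0.042 without old vehicle male 3. Because the comparisons of age and of HDM201 both use the old vehicle females, their opposite signs for Trib3 are not independent of each other.

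**Figure D2:**
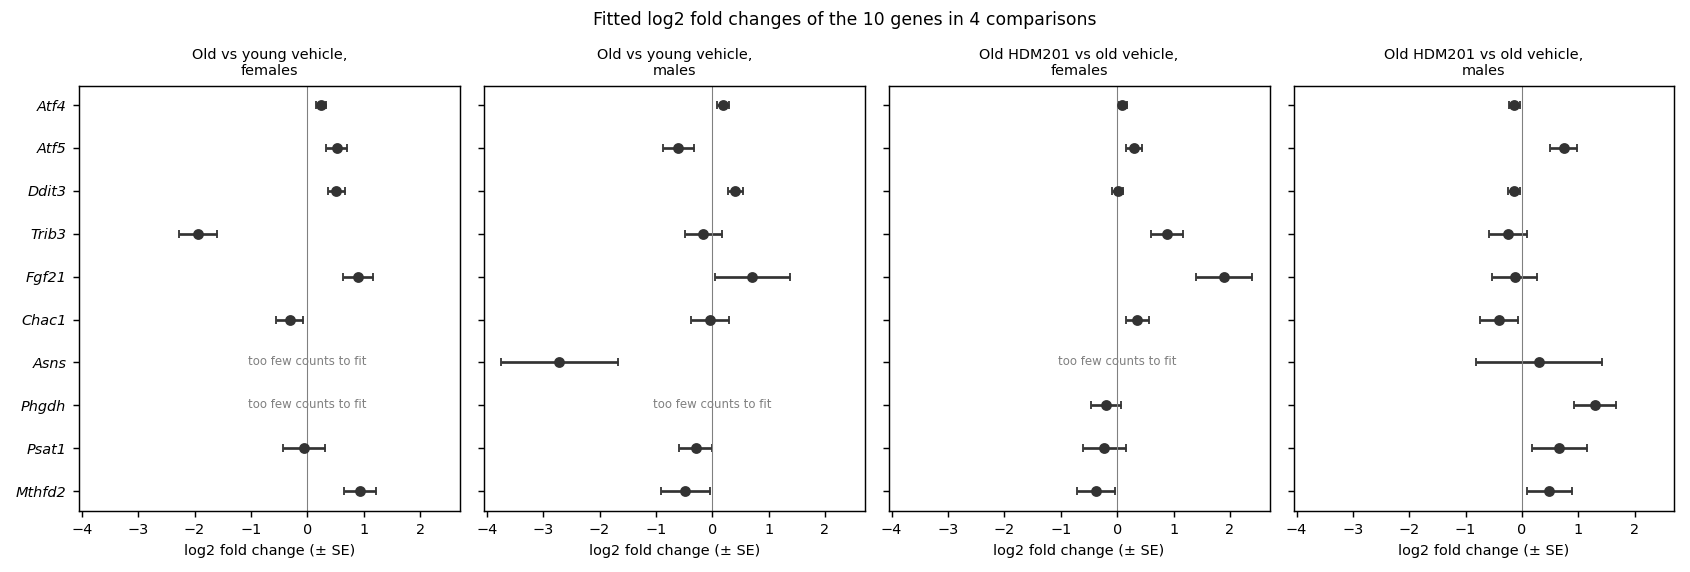
Fitted log2 fold change of each of the 10 genes (points) with its SE (bars) in 4 comparisons, namely old against young vehicle and old HDM201 against old vehicle, in females and in males. The values furthest from 0 are Asns with age in males (-2.71), Trib3 with age in females (-1.95) and Fgf21 with HDM201 in females (1.90), and genes below the count filter are marked as too few to fit.

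Chac1, on chromosome 2 from 119351229 to 119354381, encodes an enzyme that degrades glutathione and is induced through ATF4 and CHOP. Its group means were 4.14 ± 1.39, 3.26 ± 0.423 and 4.21 ± 1.14 CPM (SD) in young, old vehicle and old HDM201 females and 3.21 ± 0.634, 3.10 ± 1.34 and 2.32 ± 0.641 CPM (SD) in the same groups of males. All groups compared overlapped. The log2 fold changes with HDM201 were 0.36 (SE 0.20) in females and -0.41 (SE 0.33) in males.

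Asns, on chromosome 6 from 7675169 to 7693254 (minus strand, 12 exons), encodes asparagine synthetase, a classic ATF4 target that responds to amino acid shortage. It was close to the limit of detection in female liver and highly uneven in male liver. No female had more than 7 counts, and the groups of young, old vehicle and old HDM201 females had 25, 18 and 22 counts in all. Their values lay between 0.0490 and 0.402 CPM. Young males had 3.75, 3.31, 40.2 and 48.4 CPM, with 2 mice between 3.31 and 3.75 CPM and 2 mice between 40.2 and 48.4 CPM.

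Old vehicle males had 10.6, 1.85, 0.287 and 1.70 CPM and old HDM201 males 0.668, 0.161, 1.38, 16.8 and 3.08 CPM of Asns. In both groups a single mouse stood far above the rest, and 1 mouse lay within the female range. The log2 fold change with age in males was -2.71 (SE 1.03). It was -4.22 without old vehicle male 2, the highest of its group, and -1.38 in the fit of log2(FPKM + 1), which includes both males without counts and understates changes at low levels. The log2 fold change with HDM201 in males was 0.30 (SE 1.12), and it was 1.80 without old vehicle male 2. Without HDM201 male 4, the highest of its group, the HDM201 value was -1.45, and its sign changed in 4 of 17 alternative settings. In FPKM, young male 5, which has no counts, had 8.61 for Asns and lay between the low and the high young males. No comparison of the sexes within a group was fitted, and they are described by their ranges only.

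Over the 27 mice Asns ran against Fgf21, with r = -0.43 and -0.41 with group means subtracted. It ran with Mthfd2 (0.51 and 0.37), and with Phgdh once group means were subtracted (0.19 and 0.63). The endothelial marker sum had r = -0.70 with Asns, and -0.49 with group means subtracted, and its part was not tested.

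**Figure D3:**
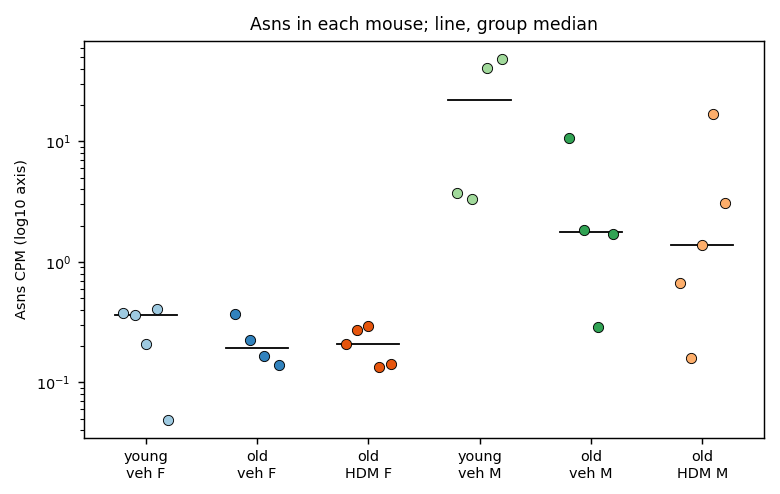
Asns CPM on a log10 axis in each of the 27 mice with counts, by group, with a line at the group median. All females lie at or below 0.402 CPM, and males spread from 0.161 to 48.4 CPM within and across the 3 male groups.

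Phgdh on chromosome 3, Psat1 on chromosome 19 and Mthfd2 on chromosome 6 serve serine synthesis and the mitochondrial folate cycle that uses it. PHGDH makes the first step from glycolysis to serine, PSAT1 the next, and MTHFD2 oxidises folate units in mitochondria, mostly in dividing cells. All 3 were near the limit of detection, with no mouse above 46 counts. Values in single mice therefore carry large counting error.

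The mean of Phgdh was highest in old HDM201 males. They had 1.45, 0.589, 0.923, 1.71 and 1.05 CPM, against 0.678, 0.464, 0.287 and 0.425 CPM in old vehicle males, and the groups overlap through 1 mouse of each. The log2 fold change was 1.29 (SE 0.38) in males and -0.20 (SE 0.27) in females, with a female minus male difference of -1.49 (SE 0.46). Without old vehicle female 3 the value in females was -0.052. Young females had at most 9 counts, and 1 of them had none, which allows up to 3 counts.

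Markers of several other cell types moved with Phgdh. The B and plasma cell sum was 30.9 to 78.1 CPM in HDM201 males against 18.0 to 32.6 CPM in old vehicle males, with all 8 markers detected, and the T and NK cell sum was 6.21 to 24.5 against 2.72 to 9.24 CPM, also over 8 markers. Over the 27 mice Phgdh had r = 0.73 with the B and plasma cell sum and 0.72 with the T and NK cell sum. With group means subtracted these were 0.27 and 0.29. The stellate cell and fibroblast sum (7 markers) was 236.5 to 420 against 186 to 350 CPM, and the cholangiocyte sum (6 markers) was 67.8 to 203 against 56.0 to 75.2 CPM. Their r with Phgdh was 0.64 and 0.60, and 0.41 and 0.38 with group means subtracted. Their part in the Phgdh values was not tested.

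Mthfd2 was higher in old vehicle females, at 1.37, 1.02, 0.885 and 1.50 CPM, than in young females, at 0.819, 0.461, 0.780, 0.690 and 0.441 CPM. The groups did not overlap in CPM, and the log2 fold change was 0.94 (SE 0.28). In FPKM they overlapped, with 0.373 FPKM in old vehicle female 3 and 0.192 to 0.499 FPKM in young females. Over 16 alternative settings the log2 fold change ran from 0.44 to 1.05. Marker sums of 5 other cell types separated the same 2 groups of females without overlap, namely the B and plasma cell, T and NK cell and cholangiocyte sums given for Ddit3, the macrophage and Kupffer cell sum (328 to 649 against 211 to 301 CPM) and the neutrophil sum (5.48 to 31.2 against 1.86 to 4.25 CPM over 6 markers). Their part in the differences of Mthfd2, Fgf21 and Trib3 with age in females was not tested. In HDM201 females Mthfd2 was 1.77, 0.656, 0.707, 0.579 and 0.987 CPM, and the log2 fold change against old vehicle females was -0.38 (SE 0.34). Male groups lay between 0.604 and 2.09 CPM and overlapped, with log2 fold changes of -0.48 (SE 0.43) with age and 0.48 (SE 0.40) with HDM201. Single mice weighed on these values. Without HDM201 female 1 the HDM201 value of Mthfd2 in females was -0.73, and without old vehicle male 3 the values in males were -0.91 with age and 0.91 with HDM201.

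Psat1 lay between 0.214 and 1.55 CPM in all mice. Its log2 fold changes were 0.66 (SE 0.49) with HDM201 in males, -0.23 (SE 0.38) with HDM201 in females, -0.30 (SE 0.30) with age in males and -0.058 (SE 0.37) with age in females. Leaving out single mice moved the 2 values in females to between -0.47 and 0.0071 with HDM201 and between -0.29 and 0.26 with age, so their direction rests on single mice. With age in males the sign turned in 3 of 16 alternative settings, to as far as 0.81, though not when single mice were left out.

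The old vehicle male without counts stood apart in these 3 genes. Its Phgdh was 26.3 FPKM, against at most 0.891 FPKM in the 27 mice with counts. Its Psat1 was 9.54 FPKM against at most 1.09, and its Mthfd2 8.27 FPKM against at most 1.20. Its Ddit3, at 11.4 FPKM, also exceeded the others, which reached 10.7. Its Atf5, at 82.2 FPKM, lay below all of them, the lowest of which had 104.7. Its Asns (5.42 FPKM), Fgf21 (1.23 FPKM) and Trib3 (4.16 FPKM) lay within their range.

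This library also stood apart as a whole. Its B and plasma cell markers summed to 271.8 FPKM, against 2.80 to 55.6 FPKM in mice with counts, its macrophage markers to 575 FPKM against at most 441, and its hepatocyte markers to 32294 FPKM against at least 40795. Its cholangiocyte sum was 184 FPKM against at most 149, and its stellate cell and fibroblast sum 211 FPKM against at most 158. The T and NK cell sum was 24.0 FPKM against at most 21.9, and the adipose sum 6.78 FPKM against at most 6.18. The endothelial sum, at 28.4 FPKM, lay below the lowest of 30.8 FPKM in mice with counts. The library's median r with the others was 0.898, where mice with counts had 0.930 to 0.952. The part of these markers in its Phgdh, Psat1 and Mthfd2 values was not tested. With this mouse in the fit (limma on log2(FPKM + 1)), the HDM201 log2 fold change of Phgdh in males was -0.56, and it was 0.33 with mice with counts only. The sign of Mthfd2 in males also turned in the FPKM fits that hold the mice without counts, to as far as -0.53 with HDM201 and 0.31 with age, and so did that of Psat1 with HDM201, to as far as -0.65.

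**Figure D4:**
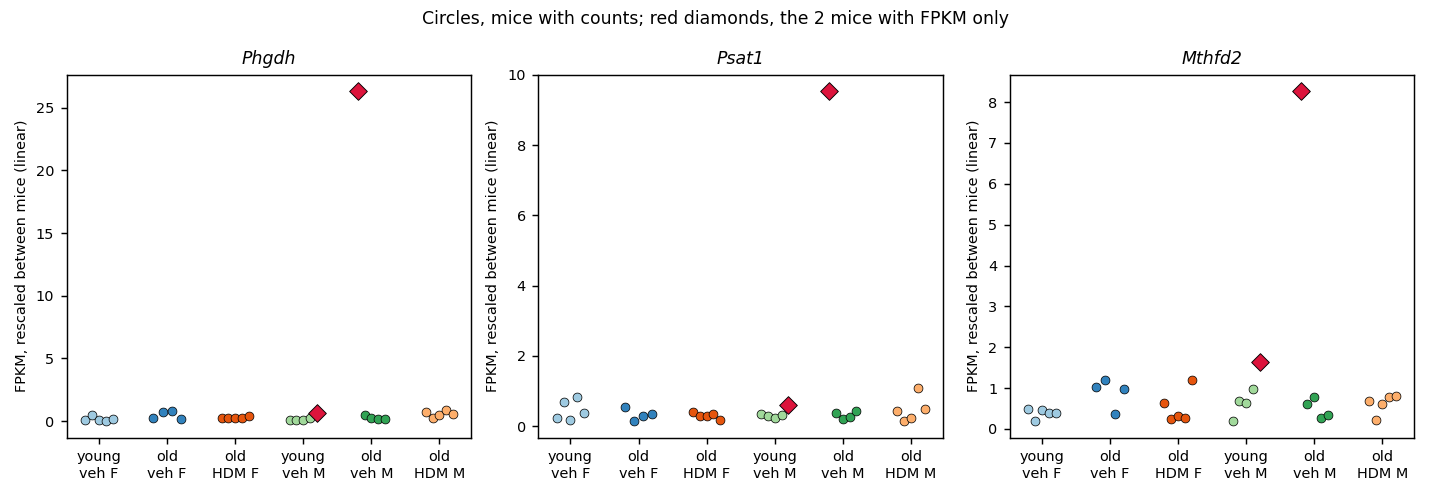
FPKM of Phgdh, Psat1 and Mthfd2 (linear axes, rescaled between mice) in all 29 mice by group, with circles for mice with counts and red diamonds for the 2 mice with FPKM only. The diamond among old vehicle males lies at 26.3, 9.54 and 8.27 FPKM, far above all other mice.

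Counts were low for Phgdh, Psat1 and Mthfd2, and for Asns in females, which limits the r that pairs with them can reach. Of the 45 pairs of the 10 genes, 3 had r above 0.5 over the 27 mice, and the values ran from -0.57 to 0.74. The highest was Atf4 with Ddit3, at 0.74 and 0.51 with group means subtracted, and the lowest was Trib3 with Ddit3. The median log2 fold change of the genes tested was 0.089 with HDM201 in females, 0.085 with HDM201 in males, 0.38 with age in females and -0.16 with age in males.

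With HDM201 in females 1 of 9 genes fitted, Fgf21, was past an FDR of 0.05, where 5.25% of 14445 genes did. Fgf21 was past it in 5 of 16 alternative settings. The groups overlapped for all 9, and they did not overlap for 10.2% of all genes. With age in females 4 of 8 passed, Fgf21, Ddit3 and Mthfd2 higher and Trib3 lower, where 31.8% of 14233 genes did (16.8% higher and 15% lower). Over 16 alternative settings Trib3 passed in 16, Ddit3 in 13, Fgf21 in 10 and Mthfd2 in 7. In 2 of the 8 the groups did not overlap in CPM, as in 25.9% of all genes. In males none passed with HDM201 (0.00709% of 14109 genes) or with age (3.69% of 13755 genes), with groups that did not overlap in 0 of 10 (4.03% of all genes) and 1 of 9 (13.7% of all genes). None passed in the interactions of sex with HDM201 (0.107%) and with age (3.92%). Of these edgeR tests, the HDM201 comparison in males had 1710 genes at an unadjusted p under 0.05 and 1 past the FDR.

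The wider pathway was read from 6 lists with 95 genes, all found, that contain none of the 10. With HDM201 in females 3 of 92 genes passed the FDR, where 5.25% of all genes did. Ddit4, which encodes an inhibitor of mTORC1 signalling, decreased by 0.79 in log2 units (SE 0.17, FDR of 0.0264 by edgeR), from 18.2 ± 2.10 (SD, n = 4) to 10.7 ± 2.96 (SD, n = 5) CPM. Fam129a, an ATF4 target that is also known as Niban, fell by 0.79 (SE 0.15, edgeR FDR 0.0144), from 7.15 ± 1.40 (SD, n = 4) to 4.18 ± 0.463 (SD, n = 5) CPM. Fgfr3, an FGF receptor, rose by 0.22 (SE 0.057, edgeR FDR 0.0469). The Ddit4 call held in 9 of 16 alternative settings, that of Fam129a in 12 and that of Fgfr3 in 2. The count of 3 became 0 without old vehicle female 2, 6 without old vehicle female 3, and 1 when old vehicle female 1 or 4 or HDM201 female 3 or 4 was left out.

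None of the other ATF4 targets in the lists passed in that comparison. The median log2 fold change of the 15 amino acid synthesis and transport genes tested was -0.21, beside 0.0010 over all genes. It was 0.014 for the 13 genes of the tRNA synthetase list, which also holds the tRNA export gene Xpot. For the 12 mitochondrial chaperones and proteases it was 0.048. The 13 FGF21 receptors and hepatic regulators had a median of 0.16. Klb, the co-receptor that FGF21 needs, had 34.9 ± 3.94 (SD, n = 5) CPM with HDM201 and 28.6 ± 4.78 (SD, n = 4) CPM with vehicle, and a log2 fold change of 0.27 (SE 0.11) that did not pass. In males 0 of 93 genes passed by edgeR and 1 by DESeq2.

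With age in females 31 of 91 genes passed, 17 higher and 14 lower, beside 31.8% over all genes (16.8% higher and 15% lower). The tRNA synthetase list of 13 genes holds synthetases, whose products charge tRNAs with amino acids, and the tRNA export gene Xpot. Of the 13 genes 5 rose and none fell. These were Tars (0.56), Wars (0.51), Cars (0.49), Aars (0.47) and Mars (0.34 in log2 units), with edgeR FDR from 0.000826 to 0.0150. Stress effector targets of ATF4 and CHOP went both ways, with 6 of 20 higher and 3 lower. Gdf15, a stress hormone, rose by 1.39 (SE 0.33) from 4.74 ± 3.05 (SD, n = 5) to 12.1 ± 3.45 (SD, n = 4) CPM, and Fam129a by 1.18 (SE 0.17), Atf3 by 0.99 (SE 0.19), Nupr1 by 0.97 (SE 0.30) and Vldlr, a lipoprotein receptor, by 0.71 (SE 0.094). Their edgeR FDR ran from 0.000246 to 0.0252. The age and HDM201 values of Fam129a both use the old vehicle females, so their opposite signs are not independent of each other.

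In the amino acid list 3 of 14 genes rose and 4 fell in old females, where 16.8% of all genes rose and 15% fell. The transporters Slc7a1 (0.91) and Slc1a4 (0.67) rose, while the enzymes Got1 (-1.49), Gpt2 (-0.73) and Cth (-0.50 in log2 units) fell, with edgeR FDR from 0.000258 to 0.0167. Got1 and Gpt2 are transaminases, and Cth makes cysteine. Of the mitochondrial chaperones and proteases, 5 of 12 fell, among them Hspe1 (-0.48), Yme1l1 (-0.33), Hspd1 (-0.31) and Clpp (-0.26), and 1 rose, Clpx (1.36), which encodes the unfoldase that feeds the protease CLPP. Their edgeR FDR ran from 0.00100 to 0.0352. Of 19 genes for eIF2 and its kinases, phosphatase and exchange factor 1 passed, Eif2s1, the subunit that the kinases phosphorylate, which fell by 0.45 (SE 0.10, edgeR FDR 0.00508). Among FGF21 receptors and hepatic regulators Pparg (0.67) and Fgfr4 (0.52) rose and Ppargc1a (-0.62) fell, with edgeR FDR from 0.00227 to 0.0175.

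**Figure D5:**
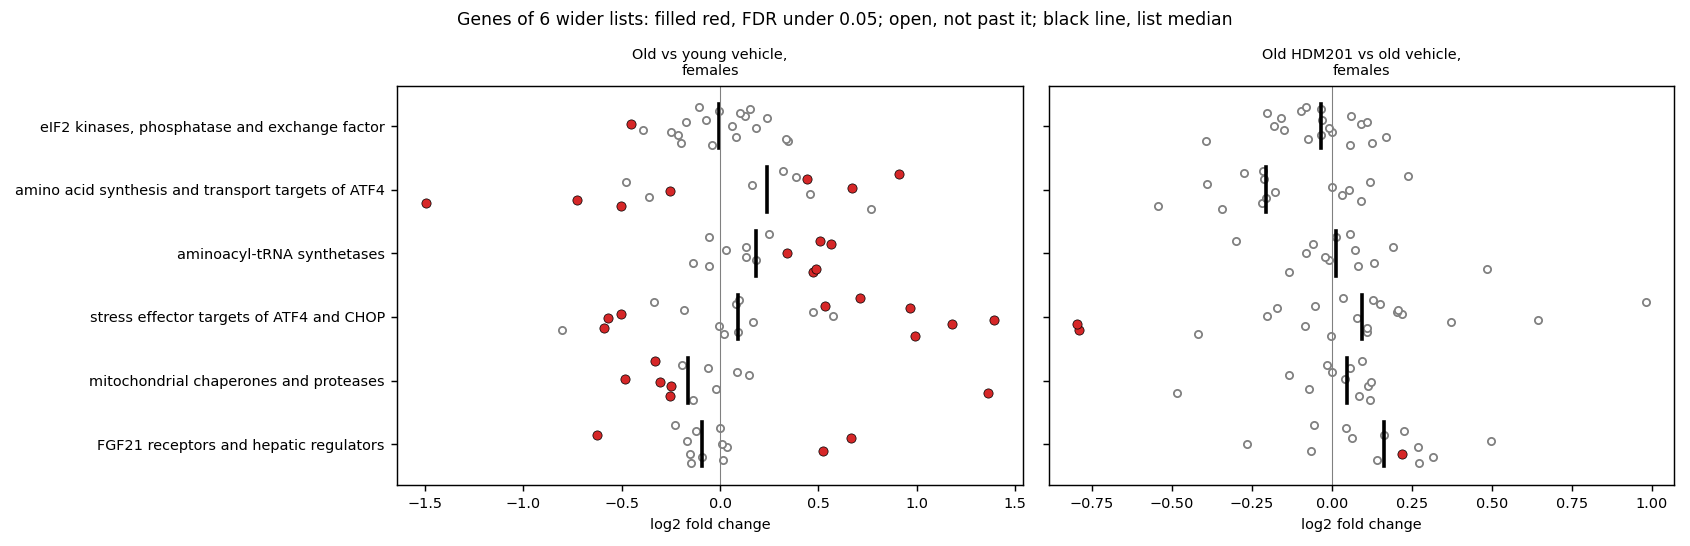
Log2 fold changes of the genes of 6 wider lists with age in females (left) and with HDM201 in old females (right), each point a gene, filled red where the edgeR FDR is under 0.05, with a black line at the list's median. With age 31 of 91 genes are filled, in both directions, and with HDM201 3 of 92 are.

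With age in males 4 of 91 genes passed, beside 3.69% over all genes. Eif2ak3, which encodes the stress kinase PERK, rose by 0.55 (SE 0.11) and Fgfr1, the main FGF21 receptor of fat tissue, by 0.93 (SE 0.19), while Map1lc3b (-0.37) and Dnaja3 (-0.36) fell, with edgeR FDR from 0.0251 to 0.0496. The Eif2ak3 call held in 7 of 16 alternative settings, that of Fgfr1 in 8, that of Dnaja3 in 4 and that of Map1lc3b in 2 of 13. The count of 4 became 0 without old vehicle male 4 or young male 2, 1 without old vehicle male 3 or young male 1 or 4, and 2 without young male 3. The difference of the age effects between the sexes, female minus male, passed for 8 of 92 genes. In it sex cannot be told apart from the different ages of old females and old males. Clpx (1.82), Vldlr (1.45), Slc3a2 (0.50) and Dnaja3 (0.36) had the higher age effect in females. Fgfr1 (-0.90), Eif4ebp1 (-0.76), Hspe1 (-0.60) and Nfe2l2 (-0.48) had the lower one, with edgeR FDR from 0.0136 to 0.0465. Leaving out single mice gave 3 to 11 genes. For the difference of the HDM201 effects 0 of 93 passed by edgeR and 4 by DESeq2.

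Fgf21 also responds to fasting, so 10 fasting-induced and 10 feeding-induced liver genes were read alongside. With HDM201 in females 1 fasting gene passed, where 5.25% of all genes did. Cpt1a, the gate for fatty acids into mitochondria, rose by 0.70 (SE 0.14) from 204 ± 22.9 (SD, n = 4) to 337 ± 68.8 (SD, n = 5) CPM (edgeR FDR 0.0198). No feeding gene passed, and their median log2 fold change was -0.40. With HDM201 in males the median of the feeding genes was -0.33. The median of the fasting genes with HDM201 was 0.11 in females and -0.077 in males. With age in females 5 fasting genes rose, Pdk4 (1.67), Fgl1 (1.31), Acot1 (1.08), Cyp4a14 (1.06) and Igfbp1 (0.95), and Cpt1a fell by 0.57. Over all genes 16.8% were higher and 15% lower in that comparison. Both Cpt1a values use the old vehicle females, so their opposite signs are not independent of each other. Of the feeding genes Thrsp (-1.72), Elovl6 (-1.39), Acly (-1.21) and Me1 (-1.19) were among 5 that fell, and Pnpla3 (1.27) rose, with edgeR FDR for the 11 genes named between 5.74e-05 and 0.0384. The mean log2 level of the fasting list in single mice was 7.84 to 8.12 in HDM201 females, 7.73 to 7.96 in old vehicle females and 7.24 to 7.78 in young females. In males Pnpla3 rose with age by 2.63 (SE 0.35) (edgeR FDR 0.00577), and no other gene of these lists passed. The female minus male difference of the age effects passed for Cyp4a14 (2.62), Acot1 (2.45), Fgl1 (2.46) and Acaca (-1.88), with edgeR FDR from 0.0111 to 0.0475. The part of feeding state in the Fgf21 values was not tested.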

How the data were processed

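RNA-seq libraries of whole liver from 29 mice were read as the authors deposited them. The authors used STAR (2-pass, mm10), SAMtools and HTSeq to make the deposited read counts per gene, which are whole numbers without normalization. The deposited FPKM values were made by the authors with Cufflinks and cover all 29 mice, with empty cells read here as 0. Versions and the use of strand in counting are not given in the sources used here, so genes that overlap another are uncertain. Counts were given for 27 mice.

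Fits were made in R 4.3.3 with the quasi-likelihood test of edgeR 4.0.16, on the groups compared alone, after TMM scaling and a filter on low counts (filterByExpr, minimum count 10, minimum total 15). FDR values follow Benjamini-Hochberg over all genes tested, with a threshold of 0.05. The SE is the absolute log2 fold change over the square root of F. CPM used TMM factors over the 27 mice. FPKM were rescaled by median-of-ratios factors of 0.860 to 1.24. Limma 3.58.1 on log2(FPKM + 1) and DESeq2 1.42.0, the tool the methods name, served as alternatives. The design had assumed 5 mice in each male group, and the males without counts enter the FPKM fits alone.

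The 10 genes and the lists were chosen with earlier results of these data known. From each wider list and comparison, up to 5 genes past the FDR with the largest absolute log2 fold change were named, with the 5 genes most correlated with Fgf21, Mdm2 and Cdkn1a. Klb was named after its values were seen, as were the correlated pairs and markers. Mice of a group are labelled as separate replicates, none of their count columns were identical, and n counts mice. The study's methods describe more than 1 cohort of mice, the labels do not assign mice to cohorts, and ages follow the labels.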

Additional observations from a re-analysis of the deposited data

Results flagged for a closer look

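Among the 60 sets formed by 10 genes and 6 groups, 7 held a mouse apart from the rest of its group by Dixon's criterion, where chance gives about 1 set in 20. For Trib3 they were young female 5 at 4.46 CPM (the next at 10.1), old vehicle female 3 at 4.70 CPM (the next at 2.11) and old HDM201 male 3 at 6.29 CPM (the next at 2.77). For Asns they were old vehicle male 2 at 10.6 CPM (the next at 1.85) and old HDM201 male 4 at 16.8 CPM (the next at 3.08). The others were Ddit3 in old vehicle female 1 at 8.69 CPM and Psat1 in young female 2 at 1.33 CPM.

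The mice without counts held values outside the range of every mouse with counts. Old vehicle male 1 had 26.3 FPKM of Phgdh, 9.54 FPKM of Psat1, 8.27 FPKM of Mthfd2 and 11.4 FPKM of Ddit3, beside the marker sums given above, and 82.2 FPKM of Atf5, where mice with counts had at least 104.7 FPKM. Young male 5 had a median r of 0.913 with the other libraries, where mice with counts had 0.930 to 0.952. It had 1.64 FPKM of Mthfd2, where mice with counts reached 1.20 FPKM. Its 6 neutrophil markers summed to 592 FPKM against at most 78.1 FPKM in mice with counts. The part of those cells in its Mthfd2 value was not tested. Its Fgf21 (0.227 FPKM) and Trib3 (0.583 FPKM) lay below those of all mice with counts, at least 0.392 and 0.724 FPKM.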

How the results depend on the processing

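For HDM201 in old females, 758 genes and 3 list genes passed. DESeq2 gave 1329 and 6, a single fit of all 6 groups 208 genes, limma on log2(FPKM + 1) 78 and 0, and on log2(FPKM + 0.1) 100 and 1. Leaving out single mice gave 185 to 956 genes and 0 to 6 list genes. For HDM201 in old males, with 1 and 0, DESeq2 gave 163 and 1, no filter on low counts 22, the single fit 6 and limma on log2(FPKM + 1) with mice with counts, an alternative chosen after seeing the data, 2. Leaving out single mice gave 0 to 13 and 0. For age in females, with 4530 and 31, list genes were 20 under both FPKM fits, and leaving out single mice gave 3502 to 4494 and 25 to 35. For age in males, with 507 and 4, DESeq2 gave 1318 and 8, no filter 968, the single fit 2007 and 14, the FPKM fits 67 and 0 (plus 1) and 99 and 0 (plus 0.1), and FPKM of mice with counts 195 and 1. Leaving out single mice gave 144 to 579 and 0 to 5. For sex by HDM201, with 16 and 0, DESeq2 gave 651 and 4 and no filter 122, and leaving out single mice gave 0 to 314 and 0 to 1. For sex by age, with 577 and 8, DESeq2 gave 1182, and leaving out single mice gave 207 to 1193 and 3 to 11. The causes of these shifts were not tested.

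Same-numbered mice had correlations of -0.21 to 0.21, and 4 of 15 pairs had their own number as the best match. With so few mice in a group, these values cannot decide whether same-numbered mice share more than a number. With the number as a replicate block, HDM201 in old females gave 370 genes, age in males 24 and 0 list genes, sex by HDM201 0 and sex by age 84 and 1 list gene.

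With old vehicle male 1 in the fit of log2(FPKM + 1), the HDM201 value of Phgdh in males was -0.56, against 0.33 with mice with counts only. Fgf21 with HDM201 in females stayed between 1.11 and 2.15 on the log2 scale, and was past the FDR threshold in 5 of 16 alternative settings. Phgdh, Psat1 and Mthfd2 had at most 46 counts in a mouse, which limits their precision.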
